A study of Homo sapiens with 6 samples.

Results

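The clustered protocadherins are cell surface proteins of the cadherin superfamily encoded by 3 neighboring gene clusters, alpha, beta, and gamma, on chromosome 5. All rows of the AN3CA expression table whose symbol begins with PCDHA, PCDHB, or PCDHG and continues as an isoform name were taken, which gave 56 of 17471 listed genes: 15 alpha, 18 beta, and 23 gamma. The family was chosen by its fold changes in this comparison, which were known beforehand, and the members were then taken by name with no threshold on a value, so their values are given as a description. The 3 clusters were treated apart because all alpha isoforms end in one set of constant exons and all gamma isoforms in another.

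AN3CA is an established human endometrial cancer line. The comparison asked which transcripts differ when *PAX2*, a paired-box transcription factor of Müllerian duct epithelium, is depleted. Cells of 3 libraries carried the empty lentiviral vector (shEV, labelled WT) and cells of 3 others a hairpin against *PAX2* (shPAX2, labelled PAX2 KD); all were selected with puromycin and grown in MEM with 10% FBS, and total RNA was sequenced after rRNA-depleted stranded library preparation. The study's methods give 1 hairpin, and nothing in the labels says that replicates came from separate cultures, so p-values measure only the spread between these libraries.

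TPM, reads scaled by gene length and library total, was deposited, and whole reads per gene were recovered from it. Depth ran from 10778743 to 18302976 read assignments in shEV and from 19506926 to 29536918 in shPAX2, so depth and group cannot be told apart. *PAX2* itself stood at 4.03, 3.66 and 2.74 TPM in shEV and 0.916, 0.723 and 1.17 TPM in shPAX2 (log2 fold change -1.47, SE 0.18, limma adjusted p = 0.000294). The labels call the cells epithelial, yet 9 of the 10 epithelial markers listed, among them *EPCAM*, *CDH1*, *KRT8*, and *KRT19*, stayed below 0.5 TPM in every library, whereas *KRT18* was between 10.2 and 17.5 TPM. Of the 9 mesenchymal markers listed, *VIM* was between 3750 and 4410 TPM, whereas 3, *CDH2*, *ZEB2*, and *TWIST1*, stayed below 0.5 TPM in every library.

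Each exon at the head of an alpha or gamma isoform, the variable exon, has its own promoter and encodes the extracellular cadherin repeats, the membrane span, and part of the cytoplasmic tail of one protein. Splicing joins it to the constant exons, which encode a cytoplasmic tail common to the whole cluster, whereas beta genes are single-exon genes with no constant part. In neurons, each cell uses a few of these promoters, chosen with the help of CTCF, cohesin, and DNA methylation, and the proteins bind the same isoform on an opposing membrane, which lets a neuron recognize its own branches. The C-type isoforms at the end of the alpha and gamma clusters follow other rules of promoter choice and are expressed more evenly among neurons. In carcinomas, the locus is known as a region of frequent promoter methylation.

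Transcripts of all 3 clusters were lower in shPAX2 cells than in shEV cells, most deeply in gamma by summed TPM. The summed alpha TPM was 230.5, 206 and 228 in shEV and 150, 132 and 152 in shPAX2. The summed beta TPM was 101, 102 and 108 in shEV and 69.6, 61.7 and 58.8 in shPAX2. The summed gamma TPM was 475, 513 and 542 in shEV and 262, 237 and 257 in shPAX2. The groups did not overlap in any of the 3 sums, and shPAX2 held 65.4% of the shEV mean in alpha, 61.2% in beta, and 49.4% in gamma. These sums count reads of constant exons once per isoform row and are therefore no measure of molecules.

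Of the 56 genes, 51 passed the expression filter of at least 0.5 TPM in at least 3 libraries, and 50 of the 51 were lower at a limma adjusted p under 0.05: 15 of 15 alpha, 12 of 13 beta, and 23 of 23 gamma. None was higher. Over all 13163 genes tested, 30.5% were lower and 12.2% higher at that threshold, and the lower share was 20.3% after median-of-ratios scaling. *PCDHB4*, counted among the 12 lower beta genes, passed the filter only through its shEV libraries, so the filter favored a lower value in shPAX2. Groups did not overlap, with shPAX2 below, in 15 alpha, 12 beta, and 23 gamma genes, against 39.0% of all genes. With a log2 fold change of at least 1 in size required as well, 0 alpha, 3 beta (*PCDHB3*, *PCDHB11*, *PCDHB12*), and 2 gamma genes (*PCDHGA11*, *PCDHGB7*) were lower, against 3.11% of all genes; at an unadjusted p under 0.05, 15 alpha genes were lower, and voom on reads also put 0 alpha genes past the fold limit. Rows of the alpha or the gamma cluster share most of their reads, so these counts are not counts of independent events. The median log2 fold change was -0.58 in alpha, -0.78 in beta, and -0.98 in gamma, beside -0.10 over all genes. In voom on reads, the medians were -0.50 in alpha, -0.92 in beta, and -0.92 in gamma.

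On the GRCh37 build, the alpha genes spanned chr5:140165721-140391932, the beta genes chr5:140474191-140628933, and the gamma genes chr5:140710081-140892544, all on the plus strand. Most clustered protocadherin promoters carry a conserved element with the core CGCT that lies upstream of the start codon. Its surroundings are shown because many members of each cluster, though not all, share letters there that the other clusters lack. In the GRCh37 sequence, CGCT occurred on the gene's strand between 120 and 300 bases upstream of the start codon in 14 of 15 alpha, 14 of 15 beta, and 21 of 22 gamma genes with an annotated start, against 37.6% of 19811 other protein-coding genes. *PCDHA9*, *PCDHB6*, and *PCDHGC5* had none in this window. The capitals mark that core in the following 26-base windows, which belong to isoforms with many reads of their own. The C-type isoforms *PCDHAC1* and *PCDHAC2* also had many such reads but are not among these windows.
PCDHA8, chr5:140220713-140220738, plus strand: tttgaagccacatgatgtCGCTgtct
PCDHA11, chr5:140248466-140248491, plus strand: gttttaggcgcaaggtgtCGCTcttt
PCDHA12, chr5:140254827-140254852, plus strand: taatcagtcacatgatgtCGCTctac
PCDHB2, chr5:140474127-140474152, plus strand: ggaagagacgcggggtggCGCTgcag
PCDHB11, chr5:140579101-140579126, plus strand: tatggagacacttggtggCGCTgcag
PCDHB14, chr5:140602833-140602858, plus strand: catggagacacatggtggCGCTacag
PCDHB16, chr5:140561883-140561908, plus strand: agtgagaacgcgtggtggCGCTgcag
PCDHGA10, chr5:140792496-140792521, plus strand: tcttaggactctgagcgcCGCTgttc
PCDHGA11, chr5:140800537-140800562, plus strand: agaatgggctctaggcgcCGCTgctc
PCDHGB7, chr5:140797172-140797197, plus strand: cggccagtgcagagcaagCGCTgacg

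The most common 9-base word of the 300 bases before the start codon, searched on both strands, was different in each cluster and contained the core. GATGTCGCT was present in 10 of 15 alpha genes, in 0 beta and 0 gamma genes, and in 0.0353% of the other protein-coding genes. GGTGGCGCT was present in 14 of 15 beta genes, in 0 alpha and 0 gamma genes, and in 0.424% of the others. GCGCCGCTG was present in 11 of 22 gamma genes, in 0 alpha and 0 beta genes, and in 1.39% of the others. *PCDHGB7*, the gamma isoform with the most reads, lacked the gamma word. The alpha word was absent from *PCDHA9*, *PCDHA11*, *PCDHA13*, *PCDHAC1*, and *PCDHAC2*, and *PCDHAC2* was the alpha isoform with the most reads. These matches describe letters, since binding at the promoters was not measured here.

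The alpha rows were nearly copies of each other. *PCDHA2*, *PCDHA3*, *PCDHA5*, and *PCDHA7* had the same recovered reads in every library, 437, 634 and 717 in shEV and 801, 622 and 528 in shPAX2, and no alpha row had fewer. The alpha isoforms share the constant exons at chr5:140358534-140358592, chr5:140362060-140362148, and chr5:140389212-140391932, 2869 bases together. The lowest row of each library was therefore taken as the reads that all rows share, and the reads above it as specific to a row, that is, to its variable exon. Reads that join the variable to the constant exons sit in the shared part, so the specific reads are a lower bound. The specific reads show the exon in which a read fell, and the promoter that began its transcript was not tested. The shared part made up 92.7% of all alpha row reads, counted again in each of the 15 rows, and 6 of the 15 rows never rose more than 3 reads above it. The TPM of an alpha row is therefore mostly the level of the constant exons. This is not the makeup of the cluster's reads, since the shared reads are one set. Beside that set, the summed row-specific alpha reads were 455, 802 and 904 in shEV and 1004, 774 and 481 in shPAX2.

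Shared alpha reads, as RPM (reads scaled to one common total of recovered read assignments per library), were 40.5, 36.4 and 39.2 in shEV and 27.1, 23.1 and 27.1 in shPAX2, without overlap, and the shPAX2 mean was 66.6% of the shEV mean. In the limma-voom fit with shared reads split off, a choice made after seeing the data, the shared alpha level fell (log2 fold change -0.50, SE 0.08, limma adjusted p = 0.000226). The 8 highest alpha rows are given as deposited. *PCDHAC2*, the last C-type isoform of the cluster, was at 20.9, 20.2 and 21.9 TPM in shEV and 14.5, 12.6 and 13.2 TPM in shPAX2. *PCDHA8* was at 16.9, 14.4 and 15.9 TPM in shEV and 10.6, 9.32 and 10.8 TPM in shPAX2. *PCDHA12* was at 15.9, 14.6 and 16.1 TPM in shEV and 10.5, 9.29 and 10.8 TPM in shPAX2. In each of these rows every shPAX2 library lay below every shEV library. *PCDHA11* was at 15.7, 14.2 and 15.7 TPM in shEV and 10.5, 9.29 and 10.7 TPM in shPAX2. *PCDHA13* was at 15.7, 13.7 and 15.2 TPM in shEV and 10.2, 8.802 and 10.3 TPM in shPAX2. *PCDHA7* was at 15.6, 13.7 and 15.2 TPM in shEV and 9.99, 8.81 and 10.3 TPM in shPAX2. The row of *PCDHA7* is one of the lowest rows that set the shared level, so by that definition it had no read of its own. *PCDHA6* was at 15.4, 13.6 and 14.97 TPM in shEV and 9.89, 8.698 and 10.2 TPM in shPAX2, and *PCDHA5* at 15.3, 13.5 and 14.9 TPM in shEV and 9.84, 8.68 and 10.2 TPM in shPAX2. The other 7 rows ran from 7.97 to 15.2 TPM in shEV and from 5.15 to 10.2 TPM in shPAX2, and the log2 fold changes of all 15 rows ran from -0.62 to -0.56.

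*PCDHAC2* supplied most of the row-specific alpha reads. Its reads above the shared level were 249, 459 and 494 in shEV and 562, 422 and 258 in shPAX2, or 23.1, 26.3 and 26.99 in shEV and 19.03, 15.7 and 13.2 in shPAX2 as RPM, and it fell (log2 fold change -0.59, SE 0.11, limma-voom adjusted p = 0.000863). Its share of all row-specific alpha reads was 54.7, 57.2 and 54.6% in shEV and 55.98, 54.5 and 53.6% in shPAX2 and overlapped between groups. The share of *PCDHA11* was 18.02, 17.3 and 17.3% in shEV and 19.02, 19.2 and 23.5% in shPAX2, without overlap. Per kilobase of variable exon, summed over all libraries, *PCDHAC2* had 856 reads, against 327 for *PCDHA11*, 124 for *PCDHAC1*, 115 for *PCDHA12*, and 106 for *PCDHA8*, and *PCDHAC1*, *PCDHA12*, and *PCDHA8* thus lay within a narrow range.

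The specific reads of *PCDHA11* were 82, 139 and 156 in shEV and 191, 149 and 113 in shPAX2, and it fell (log2 fold change -0.36, SE 0.13, limma-voom adjusted p = 0.0317). *PCDHAC1*, the other C-type alpha isoform, had 39, 72 and 87 in shEV and 81, 73 and 24 in shPAX2 and fell (log2 fold change -0.85, SE 0.26, limma-voom adjusted p = 0.0154), and *PCDHA8* had 44, 44 and 46 in shEV and 58, 45 and 30 in shPAX2 and fell (log2 fold change -0.63, SE 0.23, limma-voom adjusted p = 0.039). All 3 were lower on the RPM scale in every shPAX2 library than in any shEV library. *PCDHA12*, with 21, 57 and 65 in shEV and 60, 51 and 37 in shPAX2, did not pass (log2 fold change -0.53, SE 0.23, limma-voom adjusted p = 0.0755), nor did *PCDHA9*, with 8, 18 and 31 in shEV and 21, 20 and 5 in shPAX2 (log2 fold change -0.97, SE 0.41, limma-voom adjusted p = 0.066). The rows of *PCDHA9* and *PCDHA11* are longer than the other alpha rows, and their additional reads could include sequence outside the variable exon. The same limit applies to *PCDHAC2*. Its row, of 6126 bases, is longer than its variable exon (2856 bases) and the constant exons (2869 bases) together. No difference could be read for *PCDHA2*, *PCDHA3*, *PCDHA5*, and *PCDHA7*, which are the lowest rows of each library. Their 0 specific reads follow from how the shared level was defined, so no limit on their reads is given.

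The gamma rows had the same structure with a deeper reduction. Shared gamma reads, from the constant exons at chr5:140874374-140874432, chr5:140884960-140885048, and chr5:140890514-140892542, were 514, 918 and 997 in shEV and 811, 648 and 516 in shPAX2. As RPM, these were 47.7, 52.6 and 54.5 in shEV and 27.5, 24.1 and 26.4 in shPAX2, and the shPAX2 mean was 50.4% of the shEV mean. The shared gamma level fell in the split fit (log2 fold change -0.92, SE 0.08, limma adjusted p = 3.95e-07). The shared part made up 93.6% of gamma row reads, counted again in each row. Beside the shared reads counted once, the summed row-specific gamma reads were 869, 1442 and 1437 in shEV and 1254, 986 and 632 in shPAX2.

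Within each library, shared gamma reads divided by shared alpha reads gave a ratio that does not depend on depth or scaling; since the constant exons of alpha (2869 bases) are longer than those of gamma (2177 bases), only its change between groups can be read, not which level was higher. It was 1.18, 1.45 and 1.39 in shEV and 1.01, 1.04 and 0.977 in shPAX2 and was lower in each shPAX2 library than in any shEV library. The groups did not overlap; 3 against 3 libraries cannot go below p = 0.1 in an exact permutation test, and none was made.

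*PCDHGB7*, a B-type gamma isoform, was the highest gamma row, at 41.1, 44.4 and 45.3 TPM in shEV and 21.9, 19.8 and 19.5 TPM in shPAX2 (log2 fold change -1.08, SE 0.07, limma adjusted p = 9.18e-06). Its reads above the shared level were 582, 1032 and 1035 in shEV and 856, 674 and 430 in shPAX2, or 54.0, 59.2 and 56.5 in shEV and 28.98, 25.02 and 22.04 in shPAX2 as RPM, and they fell (log2 fold change -1.07, SE 0.09, limma-voom adjusted p = 2.47e-07). Per kilobase of variable exon it had 1774 reads over all libraries, against 212 for *PCDHGA10* and 167 for *PCDHGA11*. Its share of row-specific gamma reads was 66.97, 71.6 and 72.03% in shEV and 68.3, 68.4 and 68.04% in shPAX2, and the shPAX2 shares lay within the shEV range. *PCDHGB7* thus held most of the specific gamma reads in both groups.

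*PCDHGA11*, the A-type isoform next to *PCDHGB7*, was at 20.2, 21.7 and 22.9 TPM in shEV and 10.96, 9.98 and 10.6 TPM in shPAX2 (log2 fold change -1.003, SE 0.07, limma adjusted p = 1.96e-05). Its specific reads were 60, 99 and 100 in shEV and 78, 65 and 34 in shPAX2 and fell (log2 fold change -1.19, SE 0.18, limma-voom adjusted p = 0.000115). *PCDHGA10*, on the other side of *PCDHGB7*, was at 23.2, 24.4 and 25.3 TPM in shEV and 12.96, 11.8 and 12.5 TPM in shPAX2. The specific reads of *PCDHGA10* were 75, 104 and 84 in shEV and 128, 105 and 61 in shPAX2, and their decrease was smaller (log2 fold change -0.46, SE 0.18, limma-voom adjusted p = 0.0492); the difference between these neighboring isoforms was not tested. As a share of row-specific gamma reads, *PCDHGA10* was at 8.63, 7.21 and 5.85% in shEV and 10.2, 10.7 and 9.65% in shPAX2 and was larger in each shPAX2 library than in any shEV library. The rows of *PCDHGB7* (4966 bases) and *PCDHGA11* (5298 bases) are longer than their variable exons (2598 and 2610 bases) with the constant exons (2177 bases). Their specific reads could therefore include sequence outside the variable exon.

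The remaining high gamma rows were set by the shared reads. *PCDHGA9* was at 21.5, 23.1 and 24.3 TPM in shEV and 11.9, 10.7 and 11.8 TPM in shPAX2. *PCDHGA1*, the first gene of the cluster, was at 21.2, 22.98 and 24.6 TPM in shEV and 11.8, 10.7 and 11.6 TPM in shPAX2. *PCDHGB3* was at 21.3, 22.9 and 24.2 TPM in shEV and 11.5, 10.5 and 11.4 TPM in shPAX2. Shared reads made up 96.2%, 96.98%, and 98.8% of these rows. *PCDHGB2* was at 21.1, 22.8 and 24.1 TPM in shEV and 11.6, 10.5 and 11.7 TPM in shPAX2. *PCDHGA6* was at 20.9, 22.6 and 24.4 TPM in shEV and 11.5, 10.5 and 11.5 TPM in shPAX2, and *PCDHGB1* at 21.03, 22.6 and 24.1 TPM in shEV and 11.6, 10.5 and 11.5 TPM in shPAX2. The other 14 rows ran from 1.79 to 24.1 TPM in shEV and from 0.675 to 11.6 TPM in shPAX2.

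Among the gamma isoforms with fewer specific reads, *PCDHGA1*, *PCDHGA4*, and *PCDHGA12* fell in the split fit, with log2 fold changes of -1.07, -1.45, and -1.02. The specific reads of *PCDHGB3* were 14, 17 and 13 in shEV and 5, 5 and 0 in shPAX2, with log2 fold change -3.20, SE 0.62, limma-voom adjusted p = 0.000996; it entered the fit only through its shEV libraries, which had 10 reads or more, so the filter favored a lower value in shPAX2. *PCDHGA9* (log2 fold change -0.57, SE 0.26, limma-voom adjusted p = 0.0903) and *PCDHGB2* (log2 fold change -1.05, SE 0.43, limma-voom adjusted p = 0.06) did not pass. *PCDHGC3*, a C-type isoform, had 6, 10 and 7 in shEV and 13, 4 and 1 in shPAX2, and 10 of the 22 rows never rose more than 10 reads above the shared level. *PCDHGB8P*, a pseudogene whose row does not hold the constant exons, was at 1.79, 2.35 and 2.301 TPM in shEV and 1.19, 1.01 and 0.675 TPM in shPAX2 (log2 fold change -0.87, SE 0.18, limma adjusted p = 0.00465), which is a decrease read without any shared exon.

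The 22 rows with constant exons lay between -1.08 and -0.94 on the log2 scale, with SEs of 0.07 to 0.08, so a fold limit of 1 runs through their midst. The count of gamma rows past it was 2 with all libraries, 21 without shEV replicate 1, 13 without shPAX2 replicate 1, 10 without shPAX2 replicate 3, and 1 without each of the other 3, while the 23 rows stayed lower at an adjusted p under 0.05 in each case.

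**Figure D1:**
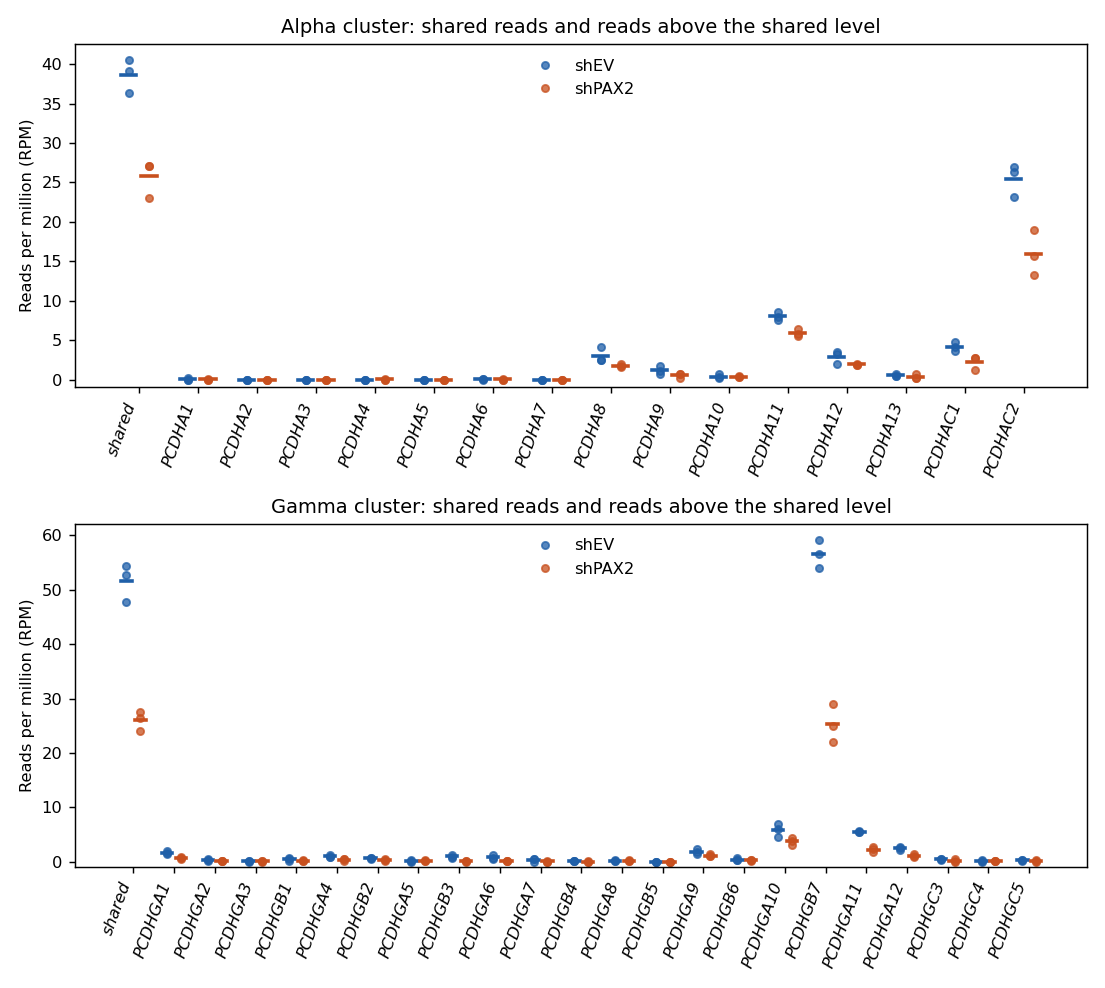
Reads scaled to a common total per library (RPM) for the alpha cluster (top) and the gamma cluster (bottom); the first position is the level shared by all rows of the cluster and the others are reads of each row above it, in order along the chromosome. Points are libraries (3 shEV, 3 shPAX2) and bars are group means; PCDHAC2 and PCDHGB7 stand above all other isoforms in both groups, and the shared gamma level falls from a mean of 51.6 to 25.99.

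The beta genes share no constant exon, so each row reports one gene. *PCDHB2*, the first beta gene listed, was the highest, at 39.9, 41.8 and 43.8 TPM in shEV and 32.8, 29.99 and 27.8 TPM in shPAX2 (log2 fold change -0.47, SE 0.07, limma adjusted p = 0.00125). *PCDHB14* was at 12.3, 10.2 and 11.4 TPM in shEV and 9.48, 8.45 and 8.06 TPM in shPAX2 (log2 fold change -0.37, SE 0.10, limma adjusted p = 0.014). *PCDHB16* was at 12.7, 12.9 and 13.7 TPM in shEV and 6.66, 6.01 and 6.83 TPM in shPAX2 (log2 fold change -0.96, SE 0.08, limma adjusted p = 3.95e-05). The groups did not overlap in any of the 3, and the decrease of *PCDHB16* was the deepest among them.

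*PCDHB11*, at chr5:140579183-140583352, was at 8.94, 8.37 and 9.07 TPM in shEV and 4.77, 3.74 and 3.45 TPM in shPAX2 (log2 fold change -1.06, SE 0.12, limma adjusted p = 0.000197). *PCDHB3*, at chr5:140480057-140483411, was at 3.23, 3.28 and 3.77 TPM in shEV and 1.34, 1.59 and 1.42 TPM in shPAX2 (log2 fold change -1.01, SE 0.13, limma adjusted p = 0.000362). *PCDHB12*, at chr5:140588269-140592143, was at 2.24, 3.29 and 3.05 TPM in shEV and 1.19, 1.04 and 1.08 TPM in shPAX2 (log2 fold change -1.05, SE 0.16, limma adjusted p = 0.000883). The shPAX2 means of these genes were 45.3%, 42.3%, and 38.6% of the shEV means, without overlap of libraries. *PCDHB7* was at 7.82, 6.0 and 7.005 TPM in shEV and 4.38, 3.77 and 3.45 TPM in shPAX2 (log2 fold change -0.77, SE 0.13, limma adjusted p = 0.00146). *PCDHB9* was at 4.06, 5.31 and 5.56 TPM in shEV and 2.59, 2.32 and 2.43 TPM in shPAX2 (log2 fold change -0.89, SE 0.13, limma adjusted p = 0.000956), and *PCDHB8* at 2.89, 4.09 and 3.15 TPM in shEV and 1.93, 1.505 and 1.78 TPM in shPAX2 (log2 fold change -0.78, SE 0.15, limma adjusted p = 0.00345). In all 3, shPAX2 lay between 49.1% and 55.7% of the shEV mean.

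At the low end, *PCDHB4*, *PCDHB10*, and *PCDHB13* fell as well, with log2 fold changes of -0.78, -0.74, and -0.87. Their shPAX2 means were 34.6%, 55.5%, and 37.3% of the shEV means, since adding 0.5 TPM makes the fold changes of low genes too small. *PCDHB4* was below 0.5 TPM in all 3 shPAX2 libraries and entered the test only through its shEV values. The reads of *PCDHB15* were 13, 12 and 12 in shEV and 24, 15 and 4 in shPAX2, its groups overlapped, and it did not pass (log2 fold change -0.37, SE 0.24, limma adjusted p = 0.245). The 5 genes left out by the filter, *PCDHB5*, *PCDHB6*, *PCDHB17*, *PCDHB18*, and *PCDHB19P*, had between 0 and 16 reads in any library. *PCDHB19P* was at 0.201, 0.367 and 0.287 TPM in shEV and 0.0989, 0.128 and 0.0443 TPM in shPAX2, without overlap. The groups of the other genes left out overlapped. In the limma fit with no filter, 13 of 18 beta genes had an adjusted p under 0.05, beside 12 of 13 with it.

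The makeup of the beta cluster differed between the groups. *PCDHB2* was 39.6, 40.9 and 40.6 in shEV and 47.2, 48.6 and 47.3 in shPAX2 as a percentage of the summed beta TPM, with a mean of 40.4% ± 0.68 (SD, n = 3) in shEV and 47.7% ± 0.77 (SD, n = 3) in shPAX2. *PCDHB14* took 10.9% ± 1.15 (SD, n = 3) and 13.7% ± 0.04 (SD, n = 3), and *PCDHB16* took 12.7% ± 0.03 (SD, n = 3) and 10.3% ± 1.14 (SD, n = 3). Shares did not overlap between groups for these 3 genes; with 3 libraries a side an exact permutation test cannot reach p = 0.05. The count of beta genes past the fold limit was 5 without shEV replicate 1 and 1 without shPAX2 replicate 3, and *PCDHB14* did not pass in voom on reads (log2 fold change -0.25, adjusted p = 0.0662). Beta exons resemble each other: between 5.16% (*PCDHB7*) and 36.0% (*PCDHB8*) of 75-base windows of a beta gene also occurred elsewhere in the locus, and how such reads were assigned is not given in the sources used here.

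**Figure D2:**
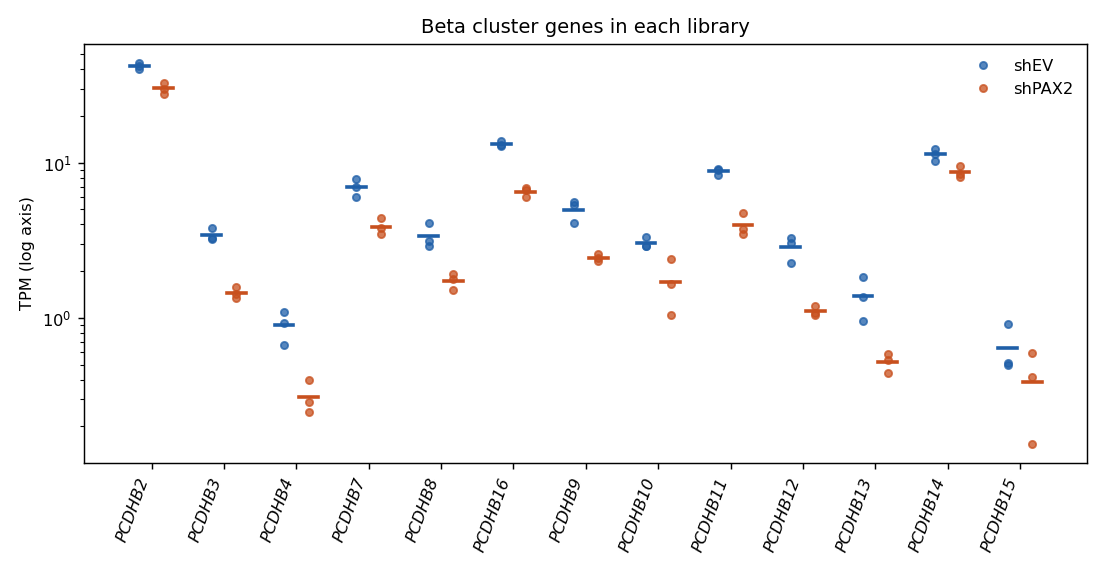
TPM on a log axis for the 13 beta genes tested, in order along the chromosome; points are libraries (3 shEV, 3 shPAX2) and bars are group means. PCDHB2 is highest in both groups, at 41.8 and 30.2 TPM, and the groups overlap only for PCDHB15.

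Genes on either side of the clusters, from a list of 35 symbols in the surrounding bands, were read as the local surroundings. Of 29 tested, 0 passed the fold limit in limma, 8 were lower and 3 higher at an adjusted p under 0.05, with 9 lower and 3 higher at an unadjusted p under 0.05 and 0 past the fold limit in voom; the 8 lower genes are 27.6% beside 30.5% of all genes. Scaling turned that split, with 3 lower and 5 higher after median-of-ratios scaling and 4 lower and 6 higher in voom. Their median log2 fold change was -0.10, the same as over all genes, with a range from -0.715 (*NRG2*, a neuregulin) to 0.32 (*RNF14*, a ubiquitin ligase), both chosen after their values were seen. *TAF7*, a subunit of the general transcription factor TFIID whose intronless gene lies between the beta and gamma clusters, was at 109, 104 and 108 TPM in shEV and 95.8, 97.8 and 92.3 TPM in shPAX2 (log2 fold change -0.17, SE 0.05, limma adjusted p = 0.0331), and did not pass after median-of-ratios scaling (adjusted p = 0.309). *HDAC3*, a histone deacetylase (log2 fold change 0.07, SE 0.06, limma adjusted p = 0.37), *DIAPH1*, an actin-nucleating formin (log2 fold change -0.10, SE 0.07, limma adjusted p = 0.289), and *PCDH1*, a non-clustered protocadherin (log2 fold change 0.07, SE 0.08, limma adjusted p = 0.498), lie beyond the gamma cluster and did not pass, although *HDAC3* did after median-of-ratios scaling (adjusted p = 0.0361) and *PCDH1* after quantile normalization (adjusted p = 0.0471). *SLC25A2*, a mitochondrial ornithine carrier gene next to *TAF7*, was at or below 0.399 TPM and was not tested. In chromosome order, the median was -0.58 in the alpha cluster, -0.78 in the beta cluster, and -0.98 in the gamma cluster, with *TAF7* at -0.17 between the beta and gamma genes. The difference between the beta and gamma medians depended on the processing, since both were -0.92 in voom on reads.

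**Figure D3:**
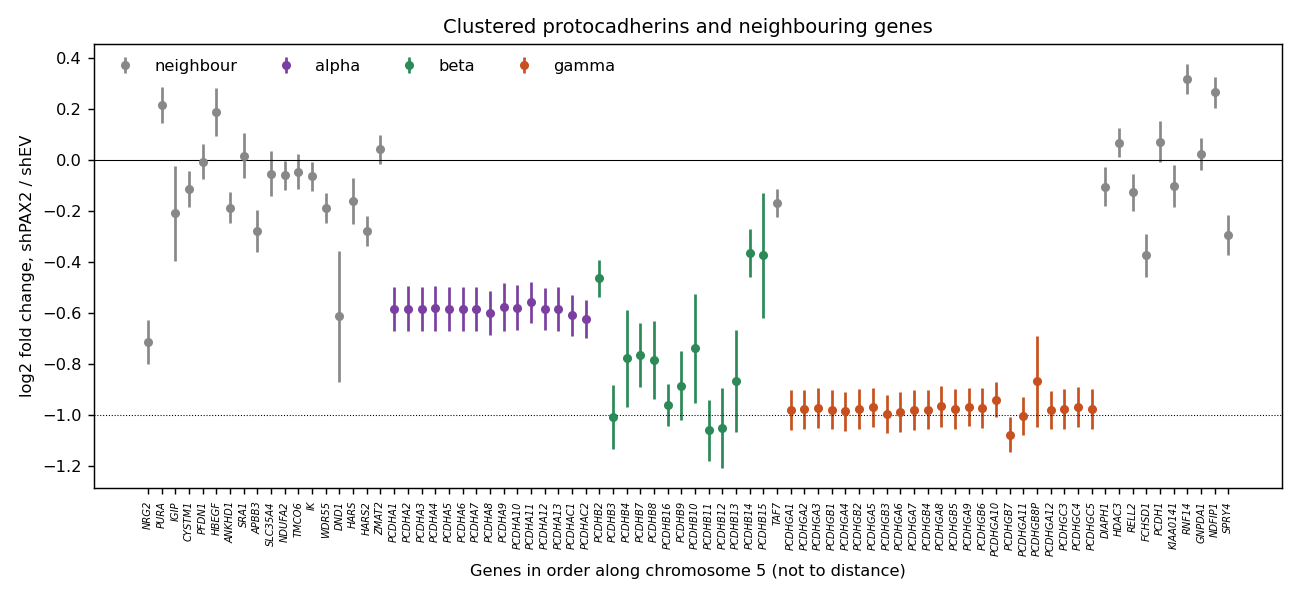
Log2 fold change (shPAX2 over shEV, on the log2(TPM + 0.5) scale) with its SE for each tested clustered protocadherin and neighboring gene, in order along chromosome 5 and not to distance; the dotted line is the fold limit of -1. Alpha rows lie at -0.62 to -0.56, beta genes at -1.06 to -0.37, and gamma rows at -1.08 to -0.87, whereas TAF7 lies at -0.17.

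Among the protocadherins outside the clusters, 9 of 12 symbols were listed and 3 passed the filter. *PCDH11X*, a delta-type protocadherin, was at 3.57, 3.48 and 3.71 TPM in shEV and 0.921, 0.708 and 0.714 TPM in shPAX2 (log2 fold change -1.68, SE 0.13, limma adjusted p = 2.75e-05). *PCDH7*, another delta-type member, was at 18.7, 19.4 and 19.9 TPM in shEV and 14.2, 11.3 and 12.04 TPM in shPAX2 (log2 fold change -0.61, SE 0.09, limma adjusted p = 0.000747). *PCDH1*, described above, was at 12.2, 13.3 and 11.4 TPM in shEV and 13.5, 12.3 and 13.1 TPM in shPAX2, with overlapping groups. Of the 3 genes tested outside the clusters, 2 were lower, beside 30.5% of all genes. The 6 listed genes that missed the filter were not tested. *PCDH18*, *PCDH19*, and *PCDH20* were lower in every shPAX2 library than in any shEV library, whereas *PCDH8*, *PCDH9*, and *PCDH10* overlapped. *PCDH19*, with the most reads among them, had 33, 35 and 43 in shEV and 27, 6 and 6 in shPAX2.

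The factors known to act at protocadherin promoters were given from a list of 26 genes, all tested. None passed the fold limit in limma or in voom; 8 were lower and 2 higher at an adjusted p under 0.05, which for the lower genes is 30.8% beside 30.5% of all genes, and 10 were lower and 4 higher at an unadjusted p under 0.05. The split was 8 lower and 5 higher after median-of-ratios scaling and 8 lower and 6 higher in voom. *CTCF*, the insulator protein that binds the promoters and enhancers, was at 47.9, 44.4 and 46.5 TPM in shEV and 40.8, 43.97 and 44.1 TPM in shPAX2 (log2 fold change -0.11, SE 0.06, limma adjusted p = 0.184). The cohesin subunits *RAD21* (log2 fold change 0.02), *SMC1A* (-0.09), and *SMC3* (0.04) did not pass. The alternative cohesin subunits differed in direction: *STAG1* rose (log2 fold change 0.25, SE 0.06, limma adjusted p = 0.00735) and *STAG2* fell (log2 fold change -0.35, SE 0.07, limma adjusted p = 0.00299), and both kept their direction in median-of-ratios scaling, quantile normalization, and voom. *SMCHD1*, a repressor of the clusters (-0.06), *WIZ*, a zinc finger partner of histone methyltransferases (-0.12), and *DNMT3B*, a DNA methyltransferase (0.09), did not pass, although *DNMT3B* did after quantile normalization (log2 fold change 0.28, adjusted p = 0.0161) and in voom (0.20, adjusted p = 0.0401).

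The other regulators that passed are named after their values were seen. *REST*, a repressor of neuronal genes, fell (log2 fold change -0.71, SE 0.07, limma adjusted p = 0.000126), as did *NIPBL*, the cohesin loader (log2 fold change -0.40, SE 0.06, limma adjusted p = 0.00106). Among enzymes of DNA methylation, *TET1* (log2 fold change -0.58, SE 0.11, limma adjusted p = 0.00404) and *TET3* (log2 fold change -0.54, SE 0.08, limma adjusted p = 0.000918), which oxidize methylcytosine, and *DNMT3A*, which methylates DNA (log2 fold change -0.48, SE 0.10, limma adjusted p = 0.00392), fell. The histone methyltransferase genes *EHMT1* and *SETDB1* fell, with log2 fold changes of -0.37 and -0.33, and the corepressor gene *TRIM28* rose (log2 fold change 0.36, SE 0.07, limma adjusted p = 0.00411). These 8 genes kept their direction, at an adjusted p under 0.05, in median-of-ratios scaling, quantile normalization, and voom.

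Partners of protocadherin proteins, such as kinases bound by their tails, proteases that cleave them, and the WAVE complex, were 26 tested genes of 28. Of these, 10 (38.5%, beside 30.5% of all genes) were lower and 1 higher at an adjusted p under 0.05, and only *RET*, the receptor tyrosine kinase that associates with clustered protocadherins, passed the fold limit, at 4.69, 4.46 and 3.91 TPM in shEV and 1.72, 1.47 and 1.298 TPM in shPAX2 (log2 fold change -1.28, SE 0.13, limma adjusted p = 0.00012). Scaling changed that split: 7 were lower and 7 higher after median-of-ratios scaling, where 20.3% of all genes were lower. The single gene past the fold limit stands beside 3.11% of all genes.

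Among markers of other cell types, summed TPM of the 4 fibroblast markers listed ran from 27.1 to 42.6 in shEV and from 237 to 249 in shPAX2, most of it *COL3A1* (log2 fold change 2.79, SE 0.18, limma adjusted p = 0.000122), while *THY1* and *PDGFRA* stayed below 0.5 TPM. The 9 mesenchymal markers summed to 4960 to 5380 TPM in shEV and 4230 to 4410 TPM in shPAX2, most of it *VIM*. Among them, *COL1A2* fell (log2 fold change -1.11, SE 0.08, limma adjusted p = 1.75e-05). The 6 neuronal markers listed summed to 166 to 174 TPM in shEV and 213 to 232 TPM in shPAX2, nearly all of it *TUBB3* (log2 fold change 0.38, SE 0.06, limma adjusted p = 0.000942), with the other 5 below 0.5 TPM. The epithelial markers summed to 11.2 to 13.4 TPM and 12.5 to 18.1 TPM. Their part in the protocadherin values was not tested.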

How the data were processed

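RNA-seq of AN3CA cells, 3 shEV and 3 shPAX2 libraries, was analyzed from 1 table of TPM values deposited by the authors for 17471 genes. The submitters' processing notes name bcl2fastq, STAR, Subread, featureCounts, edgeR, and hg19, while the study's methods name RSEM and DESeq2 for another cell line; the strand, multi-mapping, and overlap settings are not given in the sources used here. All 6 columns were matched to samples by their names in the labels, and groups came from the sample titles. The labels and the methods' account of the knockdown give an empty vector as the control of this line, while other passages of the study call it scrambled; which one these libraries carried was taken from the labels.

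TPM ratios between libraries were whole-number ratios in 100% of genes, with a largest relative deviation of 7.06e-14, and whole reads were recovered; the recovery was also tested on simulated data, where it was not exact for every gene. Reads in exons shared by isoforms are counted once per row, so the totals are read assignments. Between libraries of one group, chi-square per degree of freedom ran from 3.13 to 14.9, more than sampling noise gives.

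The test took genes that reached 0.5 TPM in 3 or more libraries, with limma 3.58.1 in R 4.3.3 (robust eBayes with a trend), on log2 values after adding 0.5 TPM, two-sided, with Benjamini-Hochberg adjustment over all 13163 genes; fold changes are on that scale and are too small for low genes. Genes are said to have fallen or risen at an adjusted p under 0.05, and passed the fold limit with a log2 fold change of at least 1 in size. The fit was tested on simulated data. Voom on recovered reads used TMM factors. Shared and row-specific reads were fitted with voom on rows with 10 or more reads in 3 or more libraries.

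Values are given per library for members past the fold limit and for up to 8 members of each cluster with the highest mean TPM, and the rest by range; of each gene list, up to 4 genes past the fold limit per direction and a set of fixed genes are named, and others were named after their values were seen. Members and lists were chosen with earlier results of these data known. Symbols and exons came from GENCODE release 44 on GRCh37, and upstream sequence from the GRCh37 genome. Samples shared replicate numbers, which did not pair them (correlations of deviations -0.052, 0.082, and 0.0014). Alternatives were other pseudocounts, filters, thresholds, scalings, voom, the replicate block, and leaving out each library. Reads carry no molecular identifiers.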

Additional observations from a re-analysis of the deposited data

How the results depend on the processing

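The log2 fold change stayed negative in all 708 refits of single members, and 701 kept their side of an adjusted p of 0.05; the other 7 were *PCDHB10* and *PCDHB14*, which lost it. Over all genes, the median log2 fold change was -0.10, against -0.005 after median-of-ratios scaling and 0.002 after quantile normalization, and the split of calls at an adjusted p under 0.05 was 4017 lower and 1612 higher, against 2667 lower and 2739 higher after median-of-ratios scaling. Relative to that shift, the member medians were -0.49 in alpha, -0.73 in beta, and -0.88 in gamma after median-of-ratios scaling, and -0.40, -0.62, and -0.82 after quantile normalization. In voom on reads, the member medians were -0.50, -0.92, and -0.92, so beta and gamma were level there. With a pseudocount of 0.1 TPM, they were -0.60, -0.985, and -1.005.

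The counts past the fold limit were less stable. Why they moved was not tested. The beta count of 3 was 6 with a pseudocount of 0.1 TPM, 0 with 1 TPM, 0 after median-of-ratios scaling, 0 after quantile normalization, and 5 in voom, and ran from 1 to 5 when a library was left out. The gamma count of 2 was 16 with a pseudocount of 0.1 TPM, 1 with 1 TPM, 0 after median-of-ratios scaling, 1 after quantile normalization, 1 in voom, and 7 with shared reads split off, a setting chosen after seeing the data, and ran from 1 to 21 when a library was left out. With no fold limit the counts were 5629 for all genes, 15 alpha, 12 beta, 23 gamma, 2 non-clustered protocadherins, 10 promoter-choice regulators, 11 partners, and 11 neighbors. The log2 ratio of the summed TPM was -0.61 in alpha, -0.71 in beta, and -1.02 in gamma; it was -0.51, -0.61, and -0.92 after median-of-ratios scaling, and -0.90 in beta without *PCDHB2*. The other alternatives moved no count by over 1.5 times.

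Replicate numbers did not pair the samples; with the replicate block, the calls over all genes went from 598 to 588, and the block changed no cluster count (0 alpha, 3 beta, 2 gamma). The lowest and shallowest rows limit what can be read: specific reads under about 10 per library carry little information.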
